A study of Mus musculus with 4 samples.

Results

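In the Diff_MK library of a mouse keratinocyte line, cells carrying 2 or more lineage tags were compared with cells carrying exactly 1. A lineage tag is a heritable DNA sequence that a cell passes to its daughters, so cells with the same tag can descend from a common ancestor. RNA cells with at least 1000 genes and no more than 15% mitochondrial UMIs were joined to the tag library by the first 16 bases of the cell barcode. A tag was called where it had 3 or more counts and at least 10% of the tag counts of the cell. Of 6912 kept Diff_MK cells, 6027 had a called tag, 4637 of them 1 tag (single-tag cells) and 1390 of them 2 or more (several-tag cells), among 14087 kept cells in the series.

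The series holds 4 samples in 4 groups of 1 library each, an RNA and a tag library for MK and the same for Diff_MK. All samples are of the MK keratinocyte line, carry Dox as their treatment label, were grown in E low medium with 15% fetal bovine serum and antibiotics, and were sorted for GFP before droplet capture. The meaning of Diff is not given in the labels. Both groups of cells compared here come from the same Diff_MK libraries, so they share every treatment, no replicate exists, and no p-value was computed. All intervals are exact at the 95% level and reflect counting error alone. A total of 72848814 RNA UMIs lay in single-tag cells and 20952460 in several-tag cells.

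Keratinocytes build the epidermis, in which basal cells divide and their daughters move outward, switch keratins and lay down the cornified envelope. In lineage tracing, a cell may carry several tags where several integrated before its descendants spread, and all of those descendants then carry the same set. A droplet that captures several cells also shows several tags, but in combinations that need not recur, and free tag molecules add low counts of abundant tags to every droplet. Both groups carried keratinocyte markers, with Krt14, the basal type I keratin, at 13249 CPM (gene counts scaled to the total UMIs of the group) in several-tag and 12297 CPM in single-tag cells, and its partner Krt5 at 3404 and 2954 CPM. The listed markers of other cell types were low. Ptprc, the pan-leukocyte antigen, had 0 and 0.0275 CPM, and the fibroblast collagen gene Col1a1 0.0477 and 0.0549 CPM. The highest of them were the immune marker Cd68 at 4.34 and 5.50 CPM and the endothelial marker Kdr at 1.77 and 1.69 CPM.

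The tags of the 2 most frequent pairs are shown because most of the findings turn on them. All share their first 37 bases, in lower case, and the capitals mark what follows.
Tag4: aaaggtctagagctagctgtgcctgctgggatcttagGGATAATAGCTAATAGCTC
Tag1: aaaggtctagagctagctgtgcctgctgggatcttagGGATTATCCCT
Tag6: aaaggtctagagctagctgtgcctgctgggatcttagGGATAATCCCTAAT
Tag7: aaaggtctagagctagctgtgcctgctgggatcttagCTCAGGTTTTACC
The listed lengths are 56, 48, 51 and 50 bases. Over the shorter of both lengths, Tag4 and Tag1 differ by 3 edits (substitutions, insertions or deletions) and Tag6 and Tag7 by 11. The median over all 11781 pairs of listed tags was 9 edits, and 3.31% of them lay within 2.

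A single called tag did not mean a single detected tag. In single-tag cells with 50 or more tag counts, the leading tag held a median of 36.2% of the cell's tag counts and the next tag 6.60%, and a median of 65 tags had at least 1 count. The next tag was Tag1 in 43.2% of these 4163 cells, Tag2 in 26.2% and Tag3 in 16.1%, the tags that together with Tag4, Tag5 and Tag6 took the largest shares of next places. Tag1 made up 9.02% of all tag counts of tagged cells, and where it was not called it still had a median share of 5.97%, or 29 counts. For 96.6% of these cells the next tag lay between 5% and 10%. In MK the same group had a next tag at a median of 2.87%, and 5.42% of its cells had a next tag between 5% and 10%. The called threshold therefore sat closer to the level of uncalled tags in Diff_MK than in MK. The libraries also differ in their tag lists, with 154 tags in Diff_MK and 1055 in MK.

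**Figure D1:**
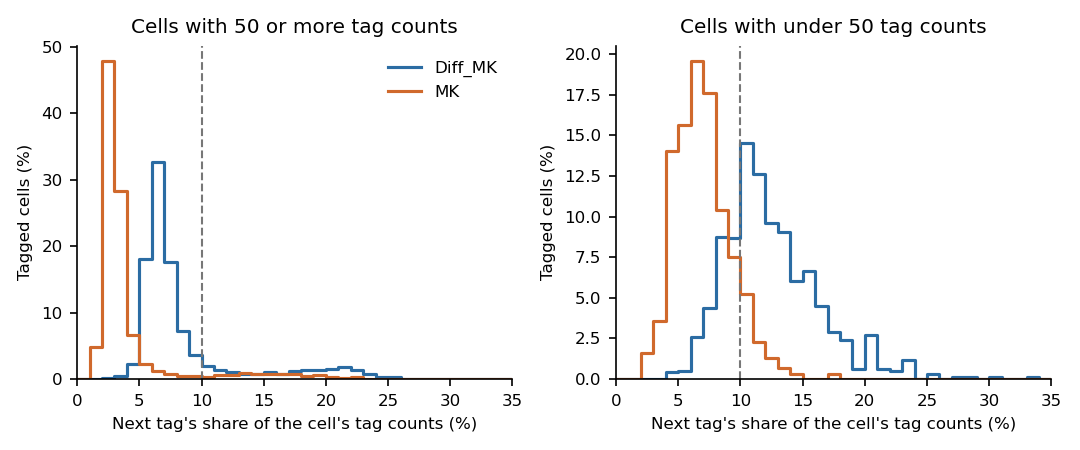
Share of the next tag (x axis, percent of the cell's tag counts, bins of 1) in tagged cells (y axis, percent of cells) of Diff_MK and MK, for cells with 50 or more tag counts (left) and under 50 (right). The dashed line marks 10%, the share at which a tag is called. Diff_MK cells on the left peak at 6 to 7% with a low second rise near 21%, while on the right the Diff_MK peak lies at 10 to 11%.

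How often several tags were called depended on the tag counts of the cell. Several tags were called in 23.1% of tagged Diff_MK cells (1390 of 6027, interval 22.0 to 24.1%) and in 7.30% of tagged MK cells (357 of 4893, 6.58 to 8.06%). Among Diff_MK cells with 3 to 19 tag counts the share was 26.5%, with 20 to 49 it was 62.2% (58.4 to 66.0%), from 200 to under 500 it was 7.16% (5.87 to 8.63%), and from 1000 counts on it was 39.9% (37.1 to 42.8%). The share was thus highest at 20 to 49 and from 1000 tag counts on, and lowest from 200 to under 500. In cells with the fewest tag counts the minimum of 3 counts is the stricter limit, and in the others the 10% share. How much of this pattern follows from these limits was not tested. Below 50 tag counts, 485 of 959 tagged cells had several tags (50.6%), and from 50 on 905 of 5068 (17.9%). In MK the shares on both sides of 50 counts were 5.86% and 7.39%. Of the several-tag cells of Diff_MK, 34.9% had under 50 tag counts, against 10.2% of its single-tag cells.

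**Figure D2:**
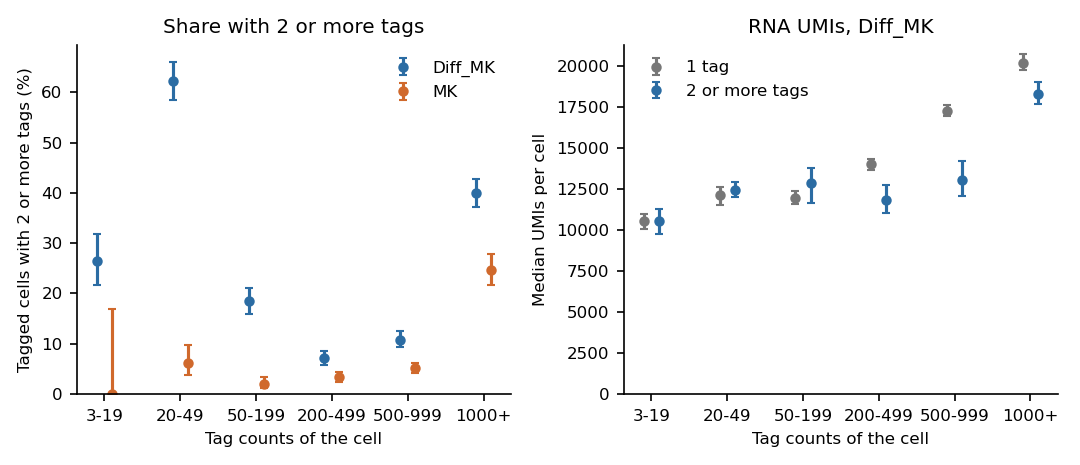
Left, percent of tagged cells with 2 or more called tags (y axis) by the tag counts of the cell (x axis) in Diff_MK and MK, with exact 95% intervals. Right, median RNA UMIs per cell in Diff_MK cells with 1 tag and with 2 or more, with 95% order-statistic intervals. The Diff_MK share reaches 62.2% at 20 to 49 tag counts and 39.9% from 1000 on. From 200 tag counts on, the cells with 2 or more tags lie below those with 1.

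Several-tag cells had fewer RNA UMIs and genes than single-tag cells under the calling rule used. The median was 14037.5 UMIs (13593 to 14333) against 15048 (14866 to 15250), a ratio of 0.933, and 3324.5 against 3664 genes, a ratio of 0.907. With every cell thinned to 7500 UMIs, which left out 91 several-tag and 275 single-tag cells, the medians were 2394 and 2465 genes. The direction turned with the calling rule: with a minimum of 10 counts for a tag, with a minimum share of 20% and with one of 5%, the UMI ratios were 1.03, 1.03 and 1.28 and the gene ratios 1.04, 1.04 and 1.37. The mitochondrial share was 6.20% and 6.02%, and the median tag count was 284 and 435. The pooled difference was not present at the same size within ranges of tag counts. Under 50 tag counts the medians were 12051 UMIs in several-tag and 11137.5 in single-tag cells, but within 3 to 19 counts they were 10520 (9779 to 11253) and 10554.5 (10047 to 10953) and within 20 to 49 counts 12457 (11982 to 12909) and 12152.5 (11537 to 12611), with overlapping intervals in both ranges. From 50 on the medians were 15396 (15017 to 15948) and 15639 (15410 to 15899), with overlapping intervals. From 500 to under 1000 tag counts they had fewer, 13053 (12060 to 14218) against 17241 (16934 to 17591). In MK the pooled ratios were above 1, at 1.05 for UMIs and 1.03 for genes.

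Cells just outside and just inside the calling threshold had close median UMIs but differed in tag counts. The 649 cells whose next tag held 8 to 10% had medians of 13310 UMIs, 3168 genes and 147 tag counts, and the 325 cells in which it held 10 to 12% had 13285 UMIs, 3020 genes and 53 tag counts.

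The tag combinations were far from evenly used. The 1203 cells with exactly 2 called tags held 232 different pairs, of which 133 occurred in 1 cell, 83 in 2 to 9 cells and 16 in 10 or more. These 16 recurring pairs held 791 cells, or 65.8% of cells with 2 tags (63.0 to 68.4%). Tag4/Tag1 led with 401 cells, 393 of them with 50 or more tag counts and in all 28.8% of several-tag cells, and Tag6/Tag7 followed with 139. In MK, 339 cells with 2 tags held 294 different pairs and no pair was seen in more than 4 cells. MK lists 1055 tags and Diff_MK 154, so the number of possible pairs differs between the libraries.

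The 16 recurring pairs fell into 6 with a high and 10 with a low median tag count. The 6 high ones, Tag4/Tag1, Tag6/Tag7, Tag39/Tag8 (14 cells), Tag10/Tag8 (13), Tag68/Tag80 (13) and Tag46/Tag52 (10), had medians from 272 to 1383 tag counts and held 590 cells. The 10 low ones held 201 cells with medians from 24.5 to 43 tag counts, and all of them combined tags from Tag1 to Tag6, the 6 tags called in the most cells. Of 905 several-tag cells with 50 or more tag counts, 66.1% carried 1 of the 6 high pairs. Median UMIs of the high pairs ran from 13225 to 18387 and of the low pairs from 10487.5 to 14637.

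In both large pairs the tags often occurred together. Among cells with 50 or more tag counts, Tag1 was called in 404 of 439 cells with Tag4 (92.0%, interval 89.1 to 94.4%), and Tag4 in 404 of 507 cells with Tag1 (79.7%, 75.9 to 83.1%). Tag7 was called in 143 of 330 Tag6 cells (43.3%, 37.9 to 48.9%) and Tag6 in 143 of 192 Tag7 cells (74.5%, 67.7 to 80.5%). Tag4 thus seldom occurred without Tag1 at these counts, while most Tag6 cells lacked a called Tag7. The counts of both tags within a cell were also alike, the lower at a median of 0.846 times the higher for Tag4/Tag1 and 0.830 times for Tag6/Tag7. The 4 smaller pairs varied. Tag8 was called in 34.1% of 44 Tag39 cells and 12.3% of 114 Tag10 cells, which made up 6.41% and 5.98% of 234 Tag8 cells, at count ratios of 0.650 and 0.631. Tag80 was called in 100% of 13 Tag68 cells and Tag68 in 86.7% of 15 Tag80 cells (ratio 0.850), and for Tag46 and Tag52 these shares were 57.9% of 19 and 68.8% of 16 cells (0.772). In cells of any tag count with Tag4 or Tag1 as the single called tag, the partner held a median of 5.49% and 5.43% of tag counts. These 64 and 89 cells had medians of 21.5 and 21 tag counts, so such a share is a very low count. For Tag6 and Tag7 the shares were 2.47% and 3.14%, in cells with medians of 364.5 and 235 tag counts.

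Cells of both large pairs had more tag counts than single-tag cells but no more RNA UMIs. Tag4/Tag1 cells had a median of 1344 tag counts and Tag6/Tag7 cells 1383, above the medians of all 19 groups of 50 or more single-tag cells that shared a tag and had 50 or more tag counts each (278.5 to 830). Each tag alone was also high: Tag4 had a median of 297 counts and Tag1 321 in their pair, Tag6 279 and Tag7 297 in theirs, while the leading tag of the 19 groups had medians from 86 to 304. Their RNA medians were 15001 UMIs (14393 to 15453) and 15357 (14478 to 16364), inside the range of the 19 groups (13803.5 to 18925). Pairs seen in 1 or 2 cells stood apart from these. Their 139 cells with 50 or more tag counts had a median of 19398 UMIs (16510 to 22226) and 471 tag counts, and against single-tag cells with 50 or more tag counts 48 of 7622 genes (0.63%) were higher and 104 (1.36%) lower by 1.5-fold or more.

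A doublet score, which rates each cell by its likeness to simulated sums of 2 cells, was highest in the rare pairs. Of the 139 cells with 50 or more tag counts in pairs seen in 1 or 2 cells, 32.4% (24.7 to 40.8%) lay among the 6% of kept cells with the highest score, against 6.25% (5.53 to 7.02%) of single-tag cells with 50 or more tag counts. The share of cells above that score was 6.23% (4.07 to 9.07%) for Tag4/Tag1, 12.2% (7.29 to 18.9%) for Tag6/Tag7 and 4.12% for several-tag cells under 50 tag counts. Whether any of these barcodes held more than 1 cell was not tested. The 187 cells with 3 or more tags held 130 different sets, 154 of them had under 50 tag counts, and 42 carried Tag4 and Tag1 together.

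Neither pair was called in an MK cell. Tags were matched between libraries over the shorter length. The match of Tag1 was called in 117 MK cells, that of Tag6 in 107, that of Tag7 in 52 and that of Tag4 in 1, and 0 MK cells had both tags of either pair. For Tag7 that count of 0 allows a share with Tag6 of up to about 5.77% of its 52 MK cells, below the 74.5% measured in Diff_MK. That limit is approximate, taken as 3 counts over the 52 cells, and is not an exact one. For Tag4 a single MK cell gives no limit.

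Gene expression of several-tag and single-tag cells differed little when all were pooled. Among 7466 genes that reached 10 CPM in either group, 5 (0.067%) were higher by 1.5-fold or more in several-tag cells and 17 (0.228%) were lower by as much. When groups were scaled by the median gene ratio instead, these counts were 10 and 11. The 5 higher were Nhs, a regulator of actin remodelling (11.7 and 6.37 CPM), Cstdc5, a stefin-type protease inhibitor gene (29.8 and 18.1 CPM), Ctla2b, of a family of cysteine protease inhibitors (27.3 and 17.1 CPM), Tns1, encoding the focal adhesion protein tensin-1 (17.9 and 11.4 CPM), and the predicted gene Gm10638. The Cstdc, Ctla2 and Sprr families hold near-identical copies, and how reads were divided among them was not tested. Among the 17 lower, Krtdap, a secreted protein of differentiating keratinocytes, had 489 and 796 CPM, and Ppbp, a neutrophil chemokine gene, 99.1 and 160.1 CPM. Lor, encoding the envelope protein loricrin, had 17.9 and 28.0 CPM and Ttk, a spindle checkpoint kinase, 10.9 and 17.1 CPM. In MK, 4 of these 5 genes had the same direction (1 past 1.5-fold) and 12 of these 17 (5 past 1.5-fold). Over all 9297 genes measured there, 52.4% were higher and 47.6% lower in several-tag cells. Of 7725 tested genes, 0.854% were higher and 0.621% lower by 1.5-fold or more.

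Xist had the lowest ratio of all called genes, and most of its counts lay in cells of 1 tag. Xist, the long noncoding RNA that silences an X chromosome, spans X, 103460366 to 103483254, minus strand, on GRCm38 and had 3.77 CPM in several-tag and 10.5 CPM in single-tag cells. Of its 744 UMIs in single-tag cells with 50 or more tag counts, 687 (92.3%) were in the 115 cells of Tag14, at 333.5 CPM. The next highest of the 19 groups, Tag9, had 11.9 CPM, and without Tag14 the single-tag cells had 0.873 CPM.

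The 12 genes of at least 50 CPM with the highest ratios were led by Clu, encoding the chaperone clusterin (102 and 71.7 CPM, ratio 1.42, interval 1.35 to 1.49), and Lgals7, encoding the epithelial galectin-7 (1116 and 803 CPM, ratio 1.39, 1.37 to 1.41). Krt19, a keratin of stem and simple epithelial cells, had 1567 and 1161 CPM, and Krt15, a type I keratin of follicle stem cells and basal cells, 835 and 623 CPM (ratio 1.34). The hypoxia-responsive Ndrg1 had 119 and 90.5 CPM and the stress-inducible Gadd45g 121 and 92.0 CPM. At the low end, after Krtdap and Ppbp, stood Sprr1a, a cornified envelope precursor of a family of near-identical copies (49.2 and 73.0 CPM), Pclaf, a PCNA-binding factor of S phase (101 and 142.9 CPM), Fst, the activin antagonist follistatin (99.3 and 138 CPM), and Hist1h1b, a replication-dependent linker histone gene (132 and 175.8 CPM). Racgap1, a cytokinesis regulator, had 41.5 and 55.4 CPM.

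Some of these pooled ratios turned within ranges of tag counts. Of the 17 lower genes, all 17 had a ratio below 1 from 50 tag counts on (0.250 to 0.769) and 5 did under 50. Of the 5 higher genes, 4 were above 1 in each range, the exceptions being Cstdc5 at 0.802 from 50 counts on and Nhs at 0.862 under 50. These genes were picked by their pooled ratio, and most pooled cells had 50 or more tag counts. Their direction there is thus a description and no separate check. Over all genes measured, 51.8% were lower from 50 counts on and 41.7% under 50. From 50 tag counts on, several-tag cells had less Krt15 than single-tag cells (436 and 532 CPM) and less Lgals7 (495 and 674 CPM), the reverse of the pooled order. These several-tag cells include both large pairs. Tag4/Tag1 had 324 CPM of Krt15 and 278 CPM of Lgals7, and Tag6/Tag7 had 224 and 171 CPM. The order of these genes in the remaining several-tag cells is not given here. Under 50 tag counts both groups were high and close to each other, with Krt15 at 1806 and 1747 CPM and Lgals7 at 2628 and 2386 CPM. Top2a, the mitotic topoisomerase, had 105 and 88.6 CPM there, against 296 and 306 CPM from 50 counts on. Clu had 62.3 and 56.7 CPM from 50 counts on and 198 and 256 CPM under 50. Cells with few tag counts, whatever their number of tags, thus had more Krt15, Lgals7 and Clu and less Top2a, and they made up a larger share of the several-tag cells. Within single-tag cells alone, 203 of 7540 genes (2.69%) were higher by 1.5-fold or more under 50 tag counts than from 50 on, and 1701 (22.6%) were lower.

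Krtdap, picked by its pooled ratio, had the same order from 50 tag counts on (401 CPM in several-tag, 813 CPM in single-tag cells). It had the opposite order under 50 (702 and 593 CPM). The several-tag cells from 50 on include Tag4/Tag1 at 114 CPM of Krtdap and Tag6/Tag7 at 247 CPM. The size of the difference without both pairs is not given here. From 50 counts on, 9 of 7557 genes (0.119%) were higher by 1.5-fold or more in several-tag cells and 19 (0.251%) were lower. Under 50, 66 of 6990 (0.944%) were higher and 20 (0.286%) lower.

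Most genes were slightly lower in several-tag cells in the pooled comparison, with 66.8% of all 9060 genes measured lower and 0.342% lower by 1.5-fold or more. From 50 tag counts on 51.8% of 9136 genes were lower, and under 50, 58.3% of 8713 were higher. Counts of list members are to be read against these shares. In the list of granular layer and cornified envelope genes, active in the outermost living keratinocytes, all 16 measured members were lower in several-tag cells, 3 of them by 1.5-fold or more, with a median log2 ratio of -0.33, against -0.05 over all genes. From 50 tag counts on, 15 of 16 were lower with a median of -0.32, and under 50, 10 of 14 were higher with a median of 0.12. The cells from 50 on include Tag4/Tag1, whose low level of this list is given below. All 52 G2/M genes were lower in the pooled comparison (median -0.27) and 41 of 43 G1/S genes (-0.22). From 50 counts on these medians were -0.08 and -0.08, and under 50 they were 0.07 and 0.19. In single-tag cells alone, cells under 50 tag counts had G2/M and G1/S medians of -1.41 and -1.35 relative to those from 50 on, with -0.31 over all genes. Cholesterol synthesis genes (22 of 26 higher, median 0.13) and hypoxia and glycolysis genes (21 of 25 higher, 0.15) also came close to 0 from 50 counts on, at -0.02 and 0.02. The basal keratinocyte list had 13 of 18 members higher in the pooled comparison (0.08) and 13 of 18 from 50 counts on (0.05), but 4 of 18 under 50 (-0.08). Its summed level had a ratio of 1.09 pooled and 0.876 from 50 counts on, where its members' median and sum thus pointed in opposite directions.

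**Figure D3:**
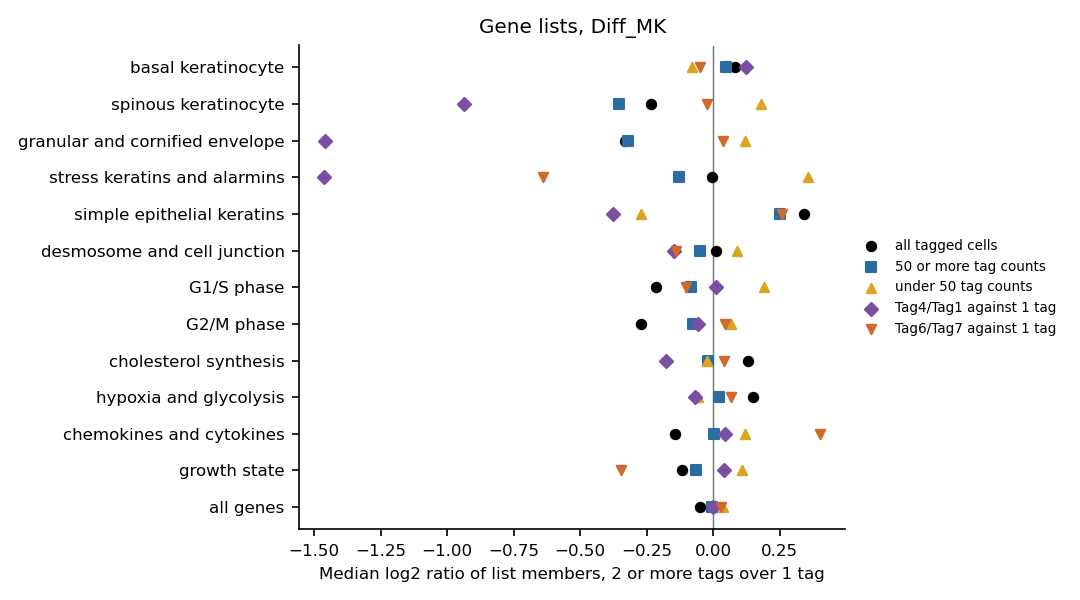
Median log2 ratio of list members (x axis) for 12 gene lists and all genes, for several-tag over single-tag cells among all tagged cells, cells with 50 or more tag counts and cells under 50, and for each large pair over single-tag cells with 50 or more tag counts. Tag4/Tag1 lies at -1.46 for the granular list and for stress keratins, while the comparisons over many tags lie between -0.35 and 0.36.

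Cells of Tag4/Tag1 had low levels of most listed differentiation and stress keratin genes. Against single-tag cells with 50 or more tag counts, 96 of 7652 genes (1.25%) were at least 1.5-fold higher and 206 (2.69%) lower. Krtdap (ENSMUSG00000074199, chromosome 7, 30787896 to 30791097, plus strand, GRCm38) had 114 CPM against 813 CPM, 7.15-fold lower and below each of the 19 single-tag groups (179 to 1697 CPM). Krt16, a stress keratin of activated keratinocytes, had 84.8 against 523 CPM, 6.17-fold lower, and 1 of the 19 groups, Tag17 at 61.3 CPM, was lower still. Krt17, also a stress keratin, was inside the range at 510 CPM, with 9 of the 19 groups lower. The differentiation genes Ivl and Krt10 had 59.3 and 23.8 CPM, each with 6 groups lower. Sprr1a had 16.1 against 74.6 CPM and Ly6d, a Ly6-family surface antigen of squamous epithelium, 398 against 1094 CPM, both below all 19 groups, as was Psca, of the same family, at 92.6 against 272 CPM. Of the granular list, 15 of 16 members were lower and 12 at least 1.5-fold (median -1.46). Of 10 stress keratins and alarmins, 9 were lower and 7 at least 1.5-fold (-1.46), and of 10 spinous genes 9 were lower (-0.94), with -0.00 over all 9209 genes measured, of which 50.1% were lower and 3.77% lower by 1.5-fold or more. The basal list had 14 of 18 members higher (0.12), while its summed level was lower (ratio 0.779), and G1/S genes stood at 0.01.

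The genes with the highest ratios in Tag4/Tag1 cells were of other kinds. Tmem176a and Tmem176b, neighbouring genes for paired membrane proteins, had 134 and 158 CPM against 61.1 and 82.7 CPM. Epb41l5, a regulator of epithelial polarity and adhesion, had 70.7 against 36.0 CPM, a ratio of 1.97 (1.77 to 2.18). Akr1b3, the aldose reductase gene, had 971 against 553 CPM, Mgst3, a microsomal glutathione transferase, 152 against 90.3 CPM, and Cd47, a surface protein that restrains phagocytes, 117 against 70.0 CPM. Tmem176a, Epb41l5, Akr1b3, Mgst3 and Cd47 were above all 19 single-tag groups, and Tmem176b above 18. These genes were picked for their ratio, so their place outside the range is a description.

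Few cells had Tag4 or Tag1 as the single called tag at 50 or more tag counts, 21 and 28. Their Krt16 levels were 94.8 and 84.3 CPM, near that of the pair, and their Krtdap levels 182 and 318 CPM lay between the pair and the other single-tag cells. Krt15 was 736 CPM with Tag4 alone and 251 CPM with Tag1 alone, against 324 CPM in the pair.

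Cells of Tag6/Tag7 had another profile. Against the same single-tag cells, 428 of 7760 genes (5.52%) were at least 1.5-fold higher and 329 (4.24%) lower. Slpi, the secreted inhibitor of leukocyte elastase (ENSMUSG00000017002, chromosome 2, 164354070 to 164389095, minus strand), had 1555 against 405 CPM, and the highest of the 19 groups had 882 CPM. Serpinb1a, an intracellular inhibitor of neutrophil proteases, had 253 against 54.1 CPM, Sirt1, the NAD-dependent deacetylase gene, 149 against 40.1 CPM, and Krt8, a simple epithelial keratin, 227 against 68.7 CPM. Id2, an inhibitor of basic helix-loop-helix factors, had 418 against 155 CPM, and Mt4, the metallothionein of stratified epithelia, 103 against 37.2 CPM. Each of these 6 genes was above all 19 single-tag groups. Genes picked for their ratio in this pair are among them, so their place outside the range is a description. Nhs had 52.6 against 6.53 CPM, with 1 group, Tag29, higher at 59.1 CPM. Lgals7 had 171 against 674 CPM, Krt17, a stress keratin, 131 against 483 CPM, and Fst 36.7 against 146 CPM, the last below all 19 groups.

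For the genes named here, levels in Tag6/Tag7 differed from those with either tag alone. The 163 cells with Tag6 as the single tag had 289 CPM of Slpi and the 43 cells with Tag7 alone 149 CPM, against 1555 CPM in the pair. Sirt1 had 9.68 and 10.2 CPM in them against 149 CPM, Krt8 16.8 and 2.90 CPM against 227 CPM, and Mt4 4.84 and 7.26 CPM against 103 CPM. In the other direction, Krt15 had 1071 and 502 CPM against 224 CPM and Krtdap 1016 and 1003 CPM against 247 CPM. For these 6 genes both single-tag groups lay on the same side of the pair. Some of them were picked for their ratio in the pair against all single-tag cells, so this order is a description. Of 7807 genes, 943 (12.1%) were at least 1.5-fold higher and 553 (7.08%) lower in Tag6/Tag7 than in Tag6 cells, 19.2% together. Between single-tag groups of like size (130 to 190 cells, 15 comparisons) that share ran from 7.10% to 19.9% with a median of 12.6%.

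**Figure D4:**
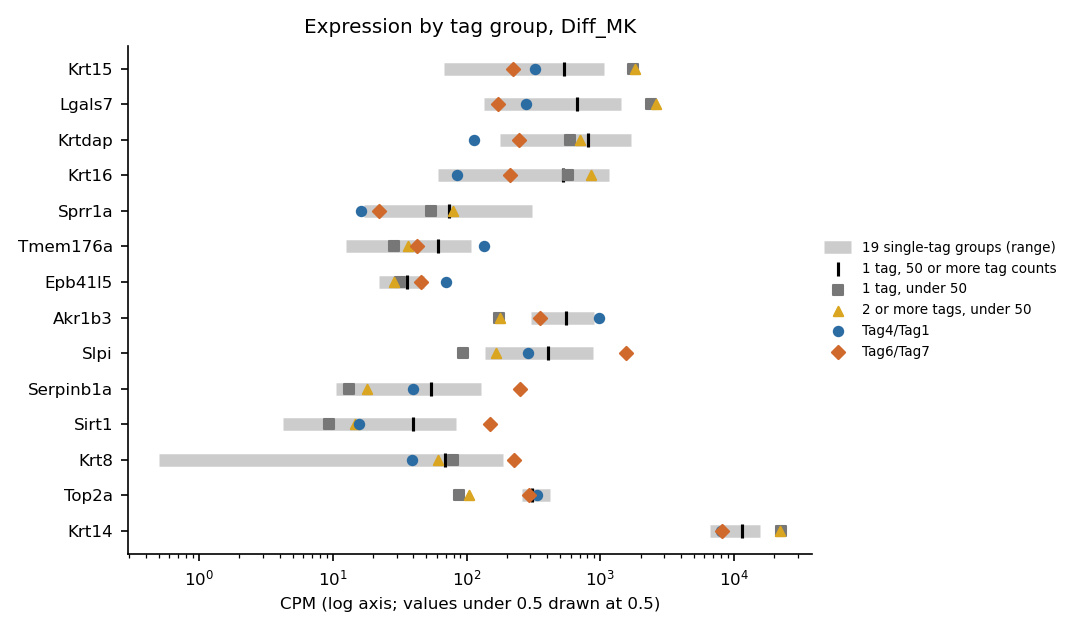
CPM (x axis, log) of 14 genes in single-tag cells with 50 or more and under 50 tag counts, several-tag cells under 50, and cells of Tag4/Tag1 and Tag6/Tag7. Grey bars span the lowest to the highest of 19 groups of single-tag cells that share a tag. Krtdap and Sprr1a of Tag4/Tag1 lie below the bars, Slpi, Serpinb1a, Sirt1 and Krt8 of Tag6/Tag7 above them.

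Both pairs can be read against the spread among tags. Each of the 19 single-tag groups differed from the other single-tag cells by at least 1.5-fold in 0.716% to 18.7% of tested genes. Tag4/Tag1 differed in 3.95% and Tag6/Tag7 in 9.76%, inside that range. The share also moves with cell number, and the highest came from Tag17, with 60 cells. The 445 cells of Tag3 and the 428 of Tag2 had 1.81% and 0.716%, against 3.95% for the 401 of Tag4/Tag1. All single-tag groups of 130 to 190 cells lay below the 9.76% of the 139 cells of Tag6/Tag7. They ran from 2.57% (Tag8, 182 cells) to 6.998% (Tag13, 144 cells). Without both large pairs, the 374 other several-tag cells with 50 or more tag counts had 16 of 7557 genes (0.212%) higher and 15 (0.198%) lower than single-tag cells.

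Over all tagged cells, no higher share of cells with markers of both states was measured among several-tag cells. Krt15 and Top2a, genes of mostly different cells here, were each counted present at 2 or more UMIs in cells thinned to 7500 UMIs. Both were present in 3.30% of single-tag cells (2.79 to 3.88%) and 2.62% of several-tag cells (1.82 to 3.64%), with overlapping intervals. Without thinning the shares were 7.35% and 6.55%. In thinned single-tag and several-tag cells the shares with both were 3.45% and 2.69% from 50 tag counts on. Under 50 they were 1.92% and 2.48%, and the intervals overlapped in both ranges. Without thinning these shares were 7.69% and 7.73% from 50 on and 4.43% and 4.33% under 50. Krt15, with or without Top2a, was present in 26.6% and 35.6% of thinned cells and Top2a, with or without Krt15, in 39.4% and 31.5%. From 50 tag counts on, Krt15 was present in 22.1% and 22.7% and Top2a in 42.6% and 41.3%. The RNA libraries of MK and Diff_MK shared 14 cell barcodes, 5 of them several-tag cells of Diff_MK. Of the 9 kept in both libraries, 4 were several-tag cells of Diff_MK.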

How the data were processed

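The authors deposited raw UMI counts of genes per cell barcode. The file headers name Cell Ranger 6.1.2 and the submitters' processing notes name mm10. The deposited tag matrices hold raw counts of each tag per cell barcode. For these, the counting tool and whether a count is a UMI or a read are not given in the sources used here. Counts in an entry named unmapped were left out of totals and calls.

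UMIs were summed over the cells of a group and scaled to CPM. With 1 library per group no test was possible. A gene was counted as higher or lower past 1.5-fold where it reached 10 CPM in either group. Ratios carry exact conditional binomial, shares Clopper-Pearson and medians order-statistic intervals. Named genes are the 12 highest and 12 lowest ratios (10 counts added, 50 CPM or more, without predicted, mitochondrial and ribosomal protein genes) in the pooled comparison and in that of each large pair, the most abundant and most different member of each list, and preset keratinocyte and cell cycle genes. Other genes past 1.5-fold were named after their values were seen, as were Xist by tag and the 19 single-tag groups. List medians cover members that reached 5 CPM in either group. The members and lists were chosen with earlier results of these data known.

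Doublets were not removed. Leaving out the 6% of cells with the highest score was an alternative. The steps were tested on simulated data, whose tag shares are not given here, so no conclusion about the calling rule is drawn from that. Positions of genes are those of GENCODE vM21 (GRCm38, the same build as mm10). Computing used numpy 2.4.6, scipy 1.17.1, pandas 2.3.3 and scikit-learn 1.9.0.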

Additional observations from a re-analysis of the deposited data

Results flagged for a closer look

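Contrasts between several-tag and single-tag cells ran in opposite directions in the 2 libraries, and the difference between libraries was not tested. The ratio of median UMIs was 0.933 in Diff_MK and 1.05 in MK. The ratio of median genes was 0.907 in Diff_MK and 1.03 in MK. The ratio of median tag counts was 0.653 in Diff_MK and 2.21 in MK over all tagged cells. From 50 tag counts on, the medians were 1023 in several-tag and 497 in single-tag cells of Diff_MK and 1110 and 511 in MK, higher in several-tag cells of both libraries.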

How the results depend on the processing

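No paired analysis was possible because each group has 1 library. Nor does any replicate exist to leave out. The values depended on the tag calling rule. The share of tagged cells with several tags (23.1%) was 15.7% with a minimum of 10 counts, 6.27% with a minimum share of 20%, 92.0% with one of 5%, 17.9% in cells with 50 or more tag counts, 50.6% in cells under 50, 17.6% without the most frequent pair, 15.5% without Tag4/Tag1 and Tag6/Tag7, and 40.9% with tags within 2 edits merged, which joined 154 tags into 39, the largest of 88 tags, and merged Tag4 with Tag1. The ratio of median UMIs (0.933) turned to 1.03 with 10 counts, 1.03 with 20%, 1.28 with 5% and 1.08 under 50 tag counts, and was 0.984 from 50 on, 0.881 without both pairs and 0.985 with merged tags. The ratio of median genes (0.907) turned to 1.04, 1.04, 1.37 and 1.06 under the same 4 settings, and was 0.998 from 50 on, 0.878 after leaving out the highest doublet scores, 0.854 without the most frequent pair, 0.812 without both pairs and 0.973 with merged tags. The share of 2-tag cells in recurring pairs (65.8%) was 72.5% with 10 counts, 86.1% with 20%, 48.5% with 5%, 42.9% under 50 tag counts, 48.6% without the most frequent pair, 37.9% without both pairs, 97.3% with merged tags, 76.1% where recurring meant 5 or more cells and 55.2% where it meant 20 or more.

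The counts of genes higher (5) and lower (17) past 1.5-fold were 12 and 29 with 10 counts, 62 and 88 with 20%, 505 and 69 with 5%, 9 and 19 from 50 tag counts on, 66 and 20 under 50, 31 and 56 without the most frequent pair, 44 and 154 without both pairs, 12 and 22 after leaving out the highest doublet scores, and 1 and 2 with merged tags. They were 10 and 11 with scaling by the median ratio, 9 and 32 with thinned cells, 8 and 7 with single-tag cells weighted to the leading tags of several-tag cells, 0 and 2 with a minimum of 50 CPM, and 477 and 871 with no CPM minimum and 10 counts over both groups, a setting that tests many weakly expressed genes. A stricter filter on cells (2000 genes, 10% mitochondrial) left all 6 results within their intervals or within 1.5 times their count, and so did leaving out barcodes listed in both RNA libraries. The settings under 50 tag counts, without both pairs and without shared barcodes were added after seeing the data. The cause of these moves was not tested beyond what each setting itself removes. Depth limits the smaller groups: 21 cells with Tag4 alone hold 263718 UMIs, against 6134482 in the pair.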

Other observations

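Other gene groups are given for the large pairs as values. Chemokine and cytokine genes had 11 of 12 measured members higher in Tag6/Tag7 than in single-tag cells with 50 or more tag counts (3 past 1.5-fold, median log2 ratio 0.40), against 53.4% of all 9324 genes higher and 6.85% past 1.5-fold. Among them was Cxcl5, a neutrophil chemokine gene, at 1484 and 1044 CPM. In Tag4/Tag1 6 of 11 were higher (0.04). Growth state genes were lower in Tag6/Tag7 in 9 of 12 members (-0.35, summed ratio 0.795), where 46.6% of all genes were lower. In Tag4/Tag1 8 of 12 were higher, where 49.9% of all 9209 genes were higher, but the median was near 0 (0.04) and the summed ratio was 0.986. Hmga2, an architectural chromatin gene, had 127 CPM in Tag6/Tag7, 280.2 CPM in Tag4/Tag1 and 183 CPM in the single-tag cells. H2-D1, a class I histocompatibility gene, had 481 CPM in Tag6/Tag7, above all 19 single-tag groups, and 225 CPM in Tag4/Tag1. The medians over all genes were 0.03 and -0.00.

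The 885 kept Diff_MK cells without a called tag had a median of 9472 UMIs, below the single-tag cells under 50 tag counts (11137.5).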
